A study of Mus musculus with 6 samples.

Results

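A platelet keeps its disc shape through the marginal band, a coil of microtubules under the membrane that is built from heterodimers of alpha and beta tubulin. Mammals encode several isotypes of each subunit, and megakaryocytes, the cells that shed platelets, switch to a set in which the beta isotype Tubb1 dominates. Loss of Tubb1 leaves mice with few and spherical platelets. The data described here are the levels of 10 tubulin genes in mouse platelet RNA, chosen by symbol from the 14975 genes of the deposited table. The alpha isotypes were Tuba4a, Tuba8, Tuba1a, Tuba1b and Tuba1c. The beta isotypes were Tubb1, Tubb2a, Tubb4b, Tubb5 and Tubb6. All 10 were listed, and all 10 passed the filter on low values described with the tests.

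The question was whether the tubulin make-up of platelets differs between normal and pre-leukemic hematopoiesis. Values of 3 control and 3 pre-AML libraries from the blood of C57BL/6 mice were compared. Per the paper, the controls were irradiated and given normal bone marrow. The pre-AML mice were irradiated and given GFP-positive leukemic cells 1 week before sampling. Those cells came from primary recipients of progenitors that had been transduced with the fusion oncogene MLL-AF9. The sample labels call the genotypes WT and AML and state no week, age or sex. The paper uses WT for un-irradiated mice and AML for the stage at 3 weeks, so the labels alone do not name these groups. Its methods state female mice and an age range, and name another recipient strain beside C57BL/6. By the paper's account, irradiation and transplantation were common to both groups, but its methods give no radiation dose for the controls. The paper reasons from the lifespan of platelets that nearly all of those circulating at 1 week came from abnormal megakaryocytes. It gives no measured share of platelets from the host's own megakaryocytes. The labels mention 2 replicates and pools of 3 to 4 mice, while the paper states 3 independent mice. The p-values therefore set group differences against the variation between libraries, whatever each library holds. Whether this is variation between single mice cannot be told.

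The isotypes differ most at the end of their coding sequence, which encodes the acidic tail that lies on the outside of the microtubule. The last 60 coding bases, stop codon included, are shown for 7 of the isotypes, because this stretch is where they can best be told apart. They were read from GENCODE M21 transcripts on GRCm38. Capitals mark bases that were mismatched or inserted against the isotype with the highest level of the class, Tuba4a or Tubb1, in a global alignment.
Tuba4a: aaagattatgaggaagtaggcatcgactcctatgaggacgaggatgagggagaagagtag
Tuba8: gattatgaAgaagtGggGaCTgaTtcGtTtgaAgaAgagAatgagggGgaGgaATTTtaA
Tuba1c: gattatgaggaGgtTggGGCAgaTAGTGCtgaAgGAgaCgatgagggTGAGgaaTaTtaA
Tubb1: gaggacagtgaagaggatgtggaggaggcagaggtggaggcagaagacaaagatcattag
Tubb2a: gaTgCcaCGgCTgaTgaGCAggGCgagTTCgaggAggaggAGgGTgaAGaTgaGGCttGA
Tubb4b: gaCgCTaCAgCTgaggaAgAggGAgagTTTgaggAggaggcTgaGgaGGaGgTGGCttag
Tubb5: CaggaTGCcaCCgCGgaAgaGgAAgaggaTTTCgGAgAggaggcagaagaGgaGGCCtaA

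These ends lie at chr1:75215622-75215681 (minus strand) for Tuba4a, chr6:121226020-121226079 (plus) for Tuba8 and chr15:99037950-99038009 (plus) for Tuba1c. Those of the beta isotypes lie at chr2:174457823-174457882 (plus) for Tubb1, chr13:34074468-34074527 (minus) for Tubb2a, chr2:25222308-25222367 (minus) for Tubb4b and chr17:35834982-35835041 (minus) for Tubb5. All are in the last coding exon, and the 3 Tuba1 genes lie close together on chromosome 15. The last codon before the stop was tat in Tuba1c, a codon for tyrosine, the residue that enzymes remove from and return to alpha tubulin. It was gag in Tuba4a and ttt in Tuba8, which encode other residues.

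Sequence likeness set how well the isotypes could be counted apart. Over the whole coding sequence, Tuba1a was 98.3% identical to Tuba1b and 97.1% to Tuba1c, whereas Tuba4a was 81.05% to 85.2% identical to the other alpha isotypes. Tubb1 was 73.0% to 76.1% identical to the other beta isotypes. Of all windows of 50 bases along the annotated transcript, none of Tubb1 or Tubb6 also occurred in a transcript of another gene. The share was 0.115% for Tubb5, 0.181% for Tuba8 and 1.11% for Tuba4a. It was 49.6% for Tubb2a, most of them shared with its neighbour Tubb2b, and 50.9% for Tubb4b, most of them shared with pseudogenes. It was 61.0% for Tuba1c, 72.9% for Tuba1a and 73.8% for Tuba1b. How the authors' counting placed reads from such windows was not given in the sources used here, so the values of Tuba1a, Tuba1b, Tuba1c, Tubb2a and Tubb4b are uncertain to that extent.

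Levels were deposited as FPKM, which are reads scaled to gene length and to library size, so different genes can be set side by side. With gene lengths from the annotation, 81.6% of all values above 0 came out as whole reads within 0.02 of a read. For 9 of the 10 tubulins all 6 values were whole within 0.06 of a read at the annotated length, and for Tuba1b a length of 2348 in place of 1875 bases gave whole reads. Between 11936728 and 17780359 reads were recovered per library. Tubb1 is annotated with 1406 bases that end at its stop codon, so no 3′ untranslated sequence entered its level. Tuba4a has 3701 bases over all annotated exons but 2840 in the transcript with the longest coding sequence, which can lower its FPKM against genes whose exons are all used. The same holds for Tubb4b (2088 against 1598), Tubb5 (3327 against 2649) and Tubb6 (2437 against 1758). It also holds for Tuba1c (2287 against 1982) and Tuba1b (1875 against 1743). The 2 lengths were equal for Tubb1, Tubb2a, Tuba8 and Tuba1a. The order of close isotypes, the shares and the ratio of beta to alpha carry this limit.

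The libraries were checked before the tubulins were compared. All 12 platelet markers had a control mean of at least 1 FPKM. The summed level of the platelet markers was 87502 to 111826 FPKM in the controls, and pre-AML 3 was lowest of all with 59462 FPKM. Pre-AML 3 stood apart from the other 5 libraries, at 41.9 on a first principal component that held 70.2% of the variance. The other libraries lay between -12.7 and -2.12. Its FPKM values had been divided by 1.31 times its recovered reads, against 0.983 to 1.01 times in the other libraries, so an equal share of reads has a lower FPKM in it. Values without that library are therefore given for the results that it moved most. In bulk RNA, fewer platelets of a kind and less RNA per platelet cannot be told apart.

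Tubb1 was the most abundant tubulin in all 6 libraries and held rank 19 or 20 of the 14975 genes. It had 3128, 2776 and 3509 FPKM in control 1, control 2 and control 3, and 3081, 3417 and 2935 FPKM in the pre-AML libraries, numbered likewise. The pre-AML values lay within the range of the controls. These levels rested on 51617 to 96276 reads a library. They averaged 3137 ± 366 FPKM (SD, n = 3) over the controls and 3144 ± 247 FPKM (SD, n = 3) over the pre-AML libraries. The log2 fold change was 0.0067 with a 95% interval of -0.30 to 0.32 (adjusted p = 0.99 from limma-trend). With equal summed FPKM the value was 0.18, and with scaling to the recovered reads it was 0.14. Its share of the recovered reads was 0.432%, 0.396% and 0.490% in the controls and 0.426%, 0.486% and 0.541% in the pre-AML libraries. On that scale the highest value was that of pre-AML 3. The platelet marker sums above are in FPKM, which run low in pre-AML 3, and were not put on that scale.

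Tubb2a, best known as an abundant beta tubulin of the brain, was second. Its level was 1274, 1257 and 1481 FPKM in the controls and 1306, 1446 and 1076 FPKM in the pre-AML libraries. Pre-AML 3 was lowest, and the other pre-AML libraries lay within the controls. Its log2 fold change was -0.074 (95% interval -0.42 to 0.27, adjusted p = 0.853 from limma-trend). In every library Tubb1 was 2.21 to 2.73 times as high as Tubb2a.

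Tubb4b, a widely expressed isotype that is also used in cilia, had 179, 189 and 208 FPKM in the controls and 189, 207 and 176 FPKM in the pre-AML libraries. The groups covered nearly the same range. Tubb5, a beta tubulin of dividing cells, had 36.7, 27.6 and 26.02 FPKM in the controls and 28.7, 29.3 and 30.9 FPKM in the pre-AML libraries. Control 1 was highest and the pre-AML libraries were close to each other. The log2 fold change was -0.014 for Tubb4b (95% interval -0.32 to 0.29, adjusted p = 0.971 from limma-trend). For Tubb5 it was -0.007 (95% interval -0.37 to 0.36, adjusted p = 0.992 from limma-trend).

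Tubb6 was the least abundant of the 10 genes in the control mean. It had 1.57, 2.77 and 3.45 FPKM in the controls, 1.51 FPKM in pre-AML 1, 2.61 FPKM in pre-AML 2 and 10.8 FPKM in pre-AML 3. The reads behind these values were 45, 95 and 100 in the controls and 49, 96 and 612 in the pre-AML libraries. The 95% Poisson interval, which covers counting error only, was 32.8 to 60.2 reads in control 1 and 564 to 662 reads in pre-AML 3. Only pre-AML 3 was above the controls. A log2 fold change of 0.44 had a 95% interval of -0.73 to 1.60 (adjusted p = 0.726 from limma-trend), and without pre-AML 3 the value was -0.22.

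Among the alpha isotypes Tuba4a was highest in every library. Tuba4a is an alpha tubulin of differentiated cells that is abundant in platelets and muscle. It had 529.7, 370.4 and 408 FPKM in the controls and 389.7, 416 and 342 FPKM in the pre-AML libraries. Control 1 was highest and pre-AML 3 lowest, with the other 4 between them. Controls averaged 436 ± 83.3 FPKM (SD, n = 3) and pre-AML libraries 383 ± 37.9 FPKM (SD, n = 3). On the log2 scale the difference was -0.18 (95% interval -0.56 to 0.21, adjusted p = 0.661 from limma-trend). It ranged from -0.29 without control 2 to -0.028 without control 1, and was -0.0051 with equal summed FPKM.

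Tuba1a, the main alpha tubulin of developing neurons, was the second alpha isotype. It had 184, 124.4 and 160.2 FPKM in the controls and 123.6, 128.5 and 88.0 FPKM in the pre-AML libraries. The pre-AML libraries lay near or under the lower end of the controls, and the groups overlapped through control 2 and pre-AML 2. The log2 fold change was -0.46, the lowest of the 10 genes, with a 95% interval of -0.92 to 0.0014. Its unadjusted p was 0.0506 and its adjusted p was 0.522 from limma-trend, so it did not pass the threshold. Without pre-AML 3 the log2 fold change was -0.29.

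Tuba8, an alpha isotype known from testis and muscle, had 44.6, 49.0 and 57.2 FPKM in the controls and 58.0, 55.2 and 52.3 FPKM in the pre-AML libraries. Tuba1c, a widely expressed isotype, had 49.4, 43.1 and 47.3 FPKM in the controls and 40.8, 49.9 and 41.4 FPKM in the pre-AML libraries. For both genes the groups overlapped. Log2 fold changes were 0.14 for Tuba8 (95% interval -0.18 to 0.46, adjusted p = 0.687 from limma-trend) and -0.083 for Tuba1c (95% interval -0.40 to 0.24, adjusted p = 0.817 from limma-trend).

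Tuba1b, the alpha tubulin of most dividing cells, was at a low level in platelets. It had 5.26, 4.96 and 4.69 FPKM in the controls, 4.48 FPKM in pre-AML 1, 5.73 FPKM in pre-AML 2 and 12.2 FPKM in pre-AML 3. The recovered reads were 145, 164 and 131 in the controls and 140, 203 and 670 in the pre-AML libraries. As for Tubb6, pre-AML 3 was far above the other libraries. Over the groups this gave a log2 fold change of 0.40 (95% interval -0.27 to 1.07, adjusted p = 0.594 from limma-trend) against 0.026 without pre-AML 3.

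**Figure D1:**
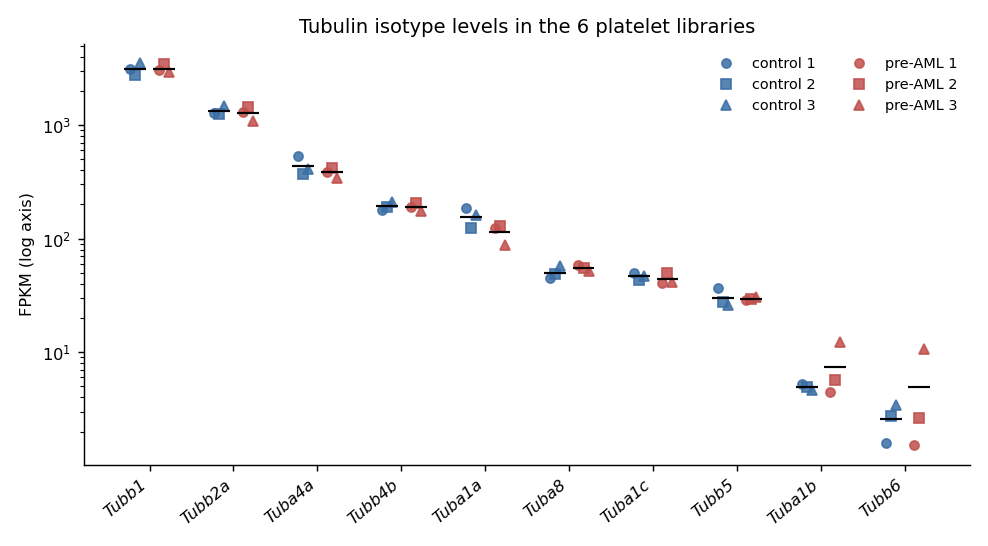
FPKM on a log axis of each tubulin gene, ordered by the control mean, in 3 control (blue) and 3 pre-AML (red) libraries, with a black bar at each group mean and the symbol giving the library number. Tubb1 lies between 2776 and 3509 FPKM in every library, and pre-AML 3 is far above the other libraries for Tuba1b and Tubb6 only.

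The levels thus spanned a wide range. The control mean of Tubb1 was 7.20 times that of Tuba4a, 104 times that of Tubb5 and 631 times that of Tuba1b. By control mean the order was Tubb1, Tubb2a, Tuba4a, Tubb4b, Tuba1a, Tuba8, Tuba1c, Tubb5, Tuba1b and Tubb6. Neighbours in this order were apart over all 6 libraries except for 3 pairs whose ranges overlapped. These were Tubb4b with Tuba1a, Tuba8 with Tuba1c, and Tuba1b with Tubb6.

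None of the 10 tubulins passed an adjusted p of 0.05 in limma-trend, and 0 had an unadjusted p under 0.05. Tuba1a lay close to it, with an unadjusted p under 0.05 from limma in 7 of 14 alternatives of processing, the lowest being 0.0242 without control 2, and Tuba1b reached 0.039 without pre-AML 1. Over all 4412 genes tested, 0.0227% passed the adjusted threshold, which was the single gene Gzma, and 9.09% had an unadjusted p under 0.05. All 10 tubulins had overlapping groups, while 18.9% of the genes tested had FPKM ranges that did not overlap, 6.14% (271) with the pre-AML libraries higher and 12.8% (564) with them lower. With equal summed FPKM these were 503 and 349 genes, and with scaling to the recovered reads 482 and 431 genes, while all 10 tubulins still overlapped. The log2 fold change was above 0 for 4 tubulins and below 0 for 6. Their median was -0.011, against -0.055 for all genes tested. The 95% interval lay between -1 and 1 for 8 of the 10 genes, so a change by 2-fold or more in either direction lay outside it on the scale of log2(FPKM + 1). For Tuba1b and Tubb6 the interval reached past 1.

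**Figure D2:**
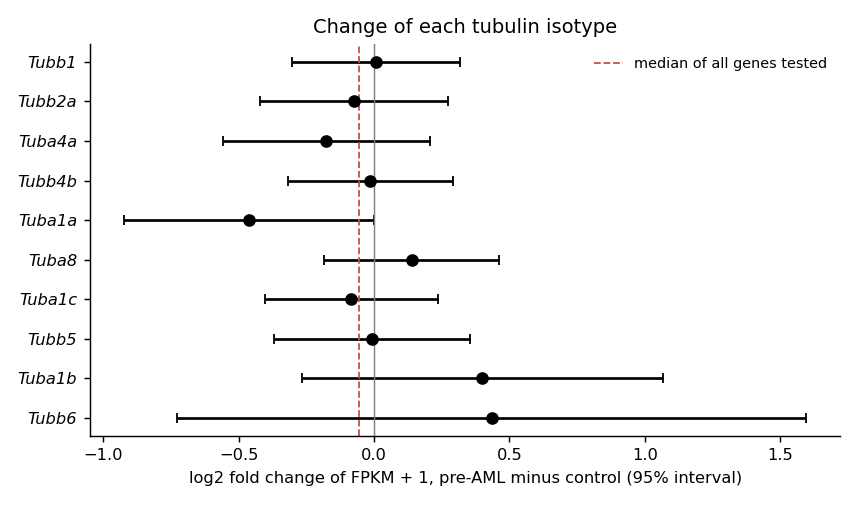
Log2 fold change of FPKM + 1, pre-AML minus control, for each tubulin gene (points) with the 95% interval of limma-trend (bars), beside the median of all genes tested at -0.055 (dashed line). All 10 intervals include 0, and those of Tubb6 and Tuba1b are the widest.

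Shares within a class do not depend on how a library was scaled. Tubb1 made up 67.7%, 65.3% and 67.1% of the summed FPKM of the 5 beta isotypes in the controls and 66.9%, 67.0% and 69.4% in the pre-AML libraries. Tubb2a made up 27.6%, 29.5% and 28.3% in the controls and 28.4%, 28.3% and 25.4% in the pre-AML libraries. The pre-AML 3 library held the highest share of Tubb1 and the lowest of Tubb2a. Tubb4b lay between 3.88% and 4.45% in all libraries and Tubb5 between 0.498% and 0.794%. Tubb6 lay between 0.0328% and 0.0660% in 5 libraries and was 0.255% in pre-AML 3. The difference in the mean share of Tubb1 was 1.06 percentage points, with overlapping groups (exact two-sided permutation test, p = 0.6, n = 3 per group). It was 0.226 points without pre-AML 3 and 0.346 points without control 2.

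Tuba4a made up 65.1%, 62.6% and 60.2% of the summed FPKM of the 5 alpha isotypes in the controls and 63.2%, 63.5% and 63.8% in the pre-AML libraries. Its share varied more among the controls than between the groups. The share of Tuba1a was 22.7%, 21.02% and 23.7% in the controls and 20.1%, 19.6% and 16.4% in the pre-AML libraries. All pre-AML libraries were below all controls. Its share averaged 22.5% ± 1.33 (SD, n = 3) over the controls and 18.7% ± 1.97 (SD, n = 3) over the pre-AML libraries, a difference of -3.76 percentage points. The exact two-sided permutation test gave p = 0.1, the smallest that 3 against 3 libraries allow, so no share could pass 0.05. Of the 10 shares it was the only one whose groups did not overlap, and for shares no background over other genes can be given. The values of Tuba1a carry the doubt over shared windows given above. With shares of recovered reads in place of FPKM the difference was -2.32 percentage points, which gives less weight to short genes, and without pre-AML 3 it was -2.63.

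The other alpha isotypes filled the rest. Tuba8 had 5.48%, 8.28% and 8.44% in the controls and 9.40%, 8.42% and 9.77% in the pre-AML libraries. Tuba1c had 6.07% to 7.28% in the controls and 6.61% to 7.73% in the pre-AML libraries. Tuba1b had 0.647% to 0.839% in the controls, 0.727% and 0.874% in pre-AML 1 and pre-AML 2, and 2.28% in pre-AML 3. The ratio of Tuba1a to Tuba1b was 35.1, 25.1 and 34.2 in the controls, 27.6 and 22.4 in pre-AML 1 and pre-AML 2, and 7.20 in pre-AML 3. For all 3 genes the groups overlapped.

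**Figure D3:**
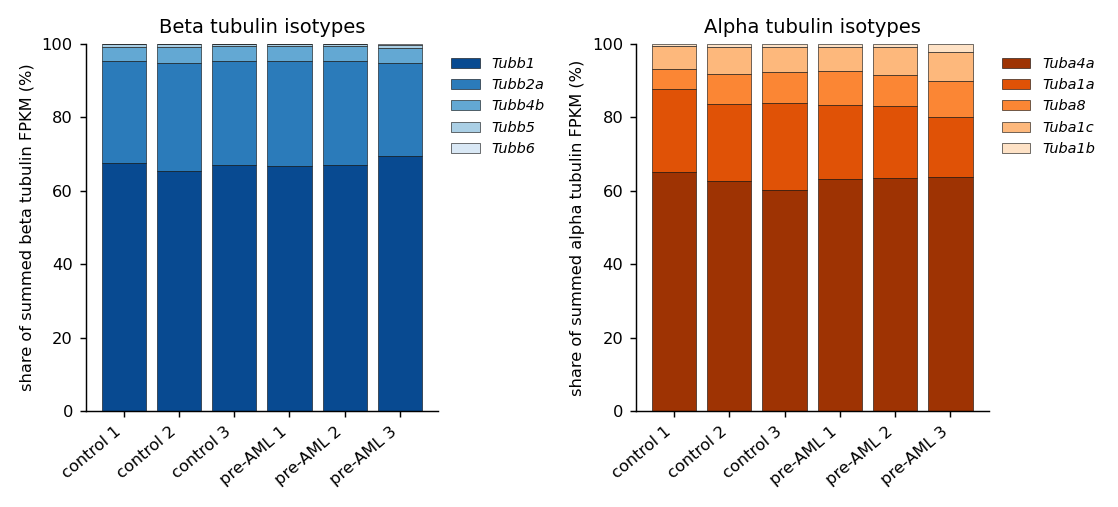
Stacked bars of the share (%) of each isotype in the summed FPKM of the 5 beta (left) and 5 alpha (right) tubulins, for each of the 6 libraries. Tubb1 takes 65.3% to 69.4% and Tuba4a 60.2% to 65.1% of the class, and the Tuba1a segment is smaller in the pre-AML bars.

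The subunits pair one to one in the protein, but the summed FPKM of the 2 classes were unequal. The size of this ratio carries the limit of gene lengths given above. The summed FPKM of the beta isotypes was 5.68, 7.18 and 7.72 times that of the alpha isotypes in the controls and 7.47, 7.78 and 7.90 times in the pre-AML libraries. The ratio averaged 6.86 ± 1.06 (SD, n = 3) over the controls and 7.71 ± 0.220 (SD, n = 3) over the pre-AML libraries, with overlapping ranges. The mean log2 ratio of alpha to beta differed by -0.18, pre-AML minus control (exact two-sided permutation test, p = 0.2, n = 3 per group). Without control 1 it differed by -0.051. Control 1 had the lowest ratio, with the highest Tuba4a and Tuba1a of all libraries. Together the 10 genes held 0.930% to 1.14% of the summed FPKM in the controls and 0.981% to 1.27% in the pre-AML libraries.

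The libraries with high Tubb6 and Tuba1b were set beside markers of other cells. Of 11 monocyte and macrophage markers listed in the table, 11 were highest in pre-AML 3, and 4 of them (Cd14, Fcgr1, Ccr2 and Cx3cr1) were at 0 in all controls. Lyz2, the lysozyme gene of myeloid cells, was high everywhere, at 2384 to 2615 FPKM in the controls and 3093 FPKM in pre-AML 3. Without Lyz2 the list summed to 0.250 to 0.704 FPKM in the controls and 5.14, 6.15 and 219.9 FPKM in the pre-AML libraries. Tyrobp, a myeloid and NK cell adaptor, made up most of the sum in pre-AML 3 with 153 FPKM. The share of all genes that were highest in pre-AML 3 was not counted, so counts of markers highest there, here and below, have no background.

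B cell markers moved in the same library. Of 8 listed, 8 were highest in pre-AML 3, where they summed to 251 FPKM, against 1.46 to 1.93 FPKM in the controls, 0.881 FPKM in pre-AML 1 and 21.04 FPKM in pre-AML 2. Cd74, which chaperones MHC class II, and Cd79b, a part of the B cell receptor, were at 168 and 23.2 FPKM there. Of the B cell list only Pax5 was at 0 in all controls. Of 10 T and NK cell markers, 9 were highest in pre-AML 3, and the list summed to 19.1 to 28.6 FPKM in the controls and 35.6, 34.0 and 43.7 FPKM in the pre-AML libraries. Its leading genes were Nkg7, at 18.9 to 28.2 FPKM over all libraries, and Gzma, at 0 to 0.353 FPKM in the controls and 4.61 to 8.90 FPKM in the pre-AML libraries. Without Nkg7 the list summed to 0.139 to 0.397 FPKM in the controls and 10.4, 6.08 and 21.1 FPKM in the pre-AML libraries. Cd3g, Cd2 and Ncr1 were at 0 in all controls. The part of these cells' RNA in the Tubb6 and Tuba1b levels was not tested.

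None of the remaining lists rose in pre-AML 3 as far as the B cell list. The same holds against the monocyte and macrophage list without Lyz2 and the T and NK cell list without Nkg7. Neutrophil markers summed to 3.19 to 3.66 FPKM in the controls and 1.97 to 4.82 FPKM in the pre-AML libraries, led by S100a8 and Mmp8, with Ly6g and Retnlg at 0 in all controls. Leukemic progenitor markers, led by Cd34 and Meis1, summed to 1.28 to 2.51 FPKM in the controls and 1.04 to 1.69 FPKM in the pre-AML libraries, with Mpo and Elane at 0 in all controls. Erythroid markers, led by the globin genes Hba-a1 and Hbb-bt, summed to 2365 to 2665 FPKM and 2386 to 2999 FPKM. Markers of cycling cells, led by Rrm2 and Birc5, summed to 0.756 to 1.03 FPKM in the controls and 0.961, 1.56 and 2.01 FPKM in the pre-AML libraries, with 4 of 8 markers highest in pre-AML 3.

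**Figure D4:**
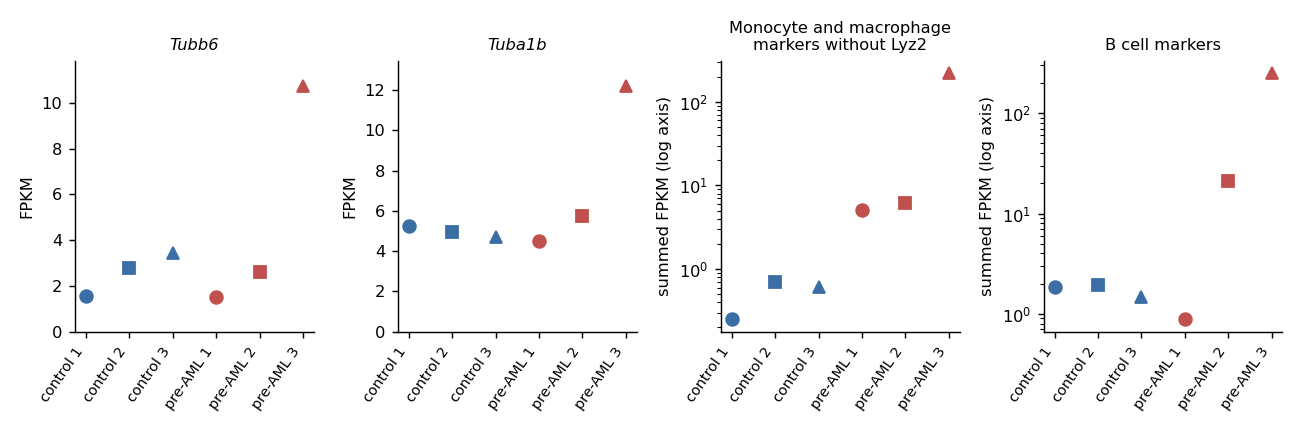
FPKM of Tubb6 and Tuba1b on linear axes, and summed FPKM of the monocyte and macrophage markers without Lyz2 and of the B cell markers on log axes, in 3 control (blue) and 3 pre-AML (red) libraries. Pre-AML 3 is highest in all 4 panels, while pre-AML 1 and pre-AML 2 lie near the controls for both tubulins.

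Other genes of microtubule assembly were described by 6 lists. Of 110 such genes, 105 were listed in the table and 46 were tested. None passed the adjusted threshold (lowest adjusted p = 0.522 from limma-trend). At an unadjusted p under 0.05, 2 were higher and 5 were lower in pre-AML platelets. Of all genes tested, 2.56% (113) were higher and 6.53% (288) lower, a split that was 275 higher and 194 lower with libraries scaled to equal summed FPKM and 252 higher and 257 lower with scaling to the recovered reads. The median log2 fold change of the 46 genes was -0.051.

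Tubulins outside the 10 genes were Tubb2b and Tubb3 among those tested. Tubb2b, the neighbour and near copy of Tubb2a, had 28.9, 38.8 and 44.4 FPKM in the controls and 36.6, 39.3 and 33.1 FPKM in the pre-AML libraries. Tubb3, the beta tubulin of neurons, had 70.4 FPKM in control 1, but 17.2 and 17.7 FPKM in control 2 and control 3 and 16.1, 16.1 and 10.5 FPKM in the pre-AML libraries. Control 1 thus stood alone. The log2 fold change of Tubb3 was -0.95 (95% interval -2.06 to 0.15, adjusted p = 0.522 from limma-trend), and -0.30 without control 1. Tubg1, the gamma tubulin that nucleates microtubules, was under the filter with 0.199 to 0.784 FPKM.

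Tubulin folding factors, which bring new subunits into the heterodimer, had 15 tested members, of which 1 was higher and 2 were lower at an unadjusted p under 0.05. Tbca, a cofactor that binds beta tubulin, had 48.7, 33.2 and 32.2 FPKM in the controls and 23.7, 25.7 and 17.4 FPKM in the pre-AML libraries. All pre-AML libraries were below all controls. Its log2 fold change was -0.74 (95% interval -1.22 to -0.26, unadjusted p = 0.00715, adjusted p = 0.522 from limma-trend). Vbp1, a subunit of the chaperone prefoldin, had a log2 fold change of -0.39 with the same adjusted p. Cct5, a subunit of the chaperonin TRiC, had 2.03, 0.925 and 1.55 FPKM in the controls and 2.23, 2.52 and 8.35 FPKM in the pre-AML libraries, a log2 fold change of 0.94, and 0.45 without pre-AML 3. Pfdn5, also of prefoldin, was the most abundant with group means of 205 and 209 FPKM.

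Among genes of microtubule nucleation, 2 of 11 were tested. Mzt1, a small protein of the gamma-tubulin complex, had 15.2, 14.2 and 12.4 FPKM in the controls and 10.6, 8.25 and 6.51 FPKM in the pre-AML libraries, without overlap. Its log2 fold change was -0.68 (95% interval -1.09 to -0.26, unadjusted p = 0.00513, adjusted p = 0.522 from limma-trend). Mzt2 had 0.955 and 1.06 FPKM in the group means. Of 24 dynein and kinesin genes, 16 were tested and 1, the dynein light chain Dynlt3, had an unadjusted p under 0.05. Dynlt3 had 103, 101 and 97.2 FPKM in the controls and 80.5, 83.3 and 47.6 FPKM in the pre-AML libraries, a log2 fold change of -0.55, and -0.29 without pre-AML 3. The light chain Dynlrb1 was the most abundant, with group means of 149 and 124 FPKM, the control mean first.

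Enzymes that modify tubulin tails had 5 tested members. Tpgs1, a subunit of the polyglutamylase complex, had 9.36, 8.72 and 13.5 FPKM in the controls and 16.8, 13.1 and 15.8 FPKM in the pre-AML libraries, with control 3 above pre-AML 2. Its log2 fold change was 0.51 (95% interval 0.083 to 0.93, adjusted p = 0.522 from limma-trend). Ttll7, which adds glutamates to beta tubulin, had a log2 fold change of -0.38 with the same adjusted p. Ttll1, the catalytic partner of Tpgs1, was highest with 26.03 and 27.2 FPKM in the group means. Svbp, the cofactor of the enzymes that remove the terminal tyrosine of alpha tubulin, followed with 14.1 and 12.5 FPKM.

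Of 6 tested microtubule-binding genes, 0 had an unadjusted p under 0.05. Mapre1, which binds growing plus ends, was highest with group means of 43.6 and 35.5 FPKM and a log2 fold change of -0.31 (95% interval -0.70 to 0.085, adjusted p = 0.531 from limma-trend), or -0.13 without pre-AML 3. Mapre2 followed with 16.7 and 15.7 FPKM. A separate list held megakaryocyte transcription factors. Of 6 tested, 0 had an unadjusted p under 0.05. Nfe2, on which transcription of Tubb1 depends, had 125, 115 and 131 FPKM in the controls and 133, 132 and 114 FPKM in the pre-AML libraries. Gata1 had 79.8 and 77.3 FPKM in the group means. Fli1 had a log2 fold change of -0.18 (95% interval -0.53 to 0.17, adjusted p = 0.637 from limma-trend), or -0.098 without pre-AML 3.

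**Figure D5:**
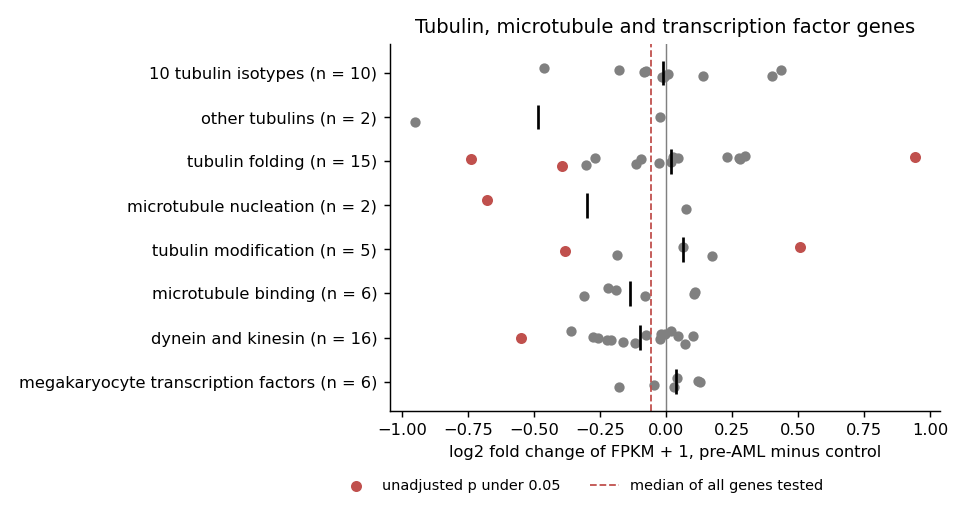
Log2 fold change of FPKM + 1, pre-AML minus control, of each tested gene of the tubulin set and of 7 other lists, 6 of microtubule genes and 1 of transcription factors (points, red at an unadjusted p under 0.05), with a black bar at the median of each list. The 10 tubulins centre on -0.011, and the 7 red points are Tbca, Mzt1, Dynlt3, Vbp1, Ttll7, Tpgs1 and Cct5.

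The genes most like Tubb1 over the 6 libraries were sought among the other 4411 genes tested. The measure was the root mean square difference between the log2(FPKM + 1) profiles after centring each on its mean. Closest were Cttn, the actin-binding protein cortactin, at 0.0288, Gsn, the actin-severing protein gelsolin, at 0.0347, and Ube2v1, a ubiquitin-conjugating factor, at 0.0361, while the median gene was at 0.221. The nearest tubulin was Tubb4b at 0.0780, in place 103, and Tuba4a was at 0.186, in place 1568. For Tuba4a the closest were Cib1, a calcium-binding protein of the platelet integrin, at 0.0389, D16Ertd472e at 0.0451 and Tpm2, a tropomyosin, at 0.0468, with the median gene at 0.252. These values describe 6 libraries, and the spread of Tubb1 over them was small (SD 0.128 on the log2 scale, against 0.215 for Tuba4a).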

How the data were processed

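Platelet RNA of 3 control and 3 pre-AML libraries (labelled WT and AML) was analysed. Platelets were purified from platelet-rich plasma by depletion of CD45 and Ter119 positive cells, and cDNA was amplified with SMART-Seq2 and barcoded with Nextera XT. The authors aligned with STAR to mm10 and deposited FPKM values for 14975 genes. The counting program and the annotation were not given in the sources used here. Columns were assigned to samples by their names.

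Values were analysed as log2(FPKM + 1) over 4412 genes that averaged 1 FPKM or more, with limma-trend (limma 3.58.1, R 4.3.3), no covariates, Benjamini-Hochberg adjustment over all genes tested and a threshold of 0.05. Fold changes of low genes are understated by the added 1. The code of the test was checked on simulated data without an outlying library, in which some unchanged genes were also called. Its error rate in the data used here was not measured. Count models were not used as the main test, since FPKM values had been scaled. Reads were recovered with exon lengths of GENCODE M21, which had 14911 of the genes. Shares and ratios were computed from FPKM within a library and compared by exact permutation tests (Python 3.11.15, numpy 2.4.6, pandas 2.3.3).

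The tubulins, the 6 lists of microtubule genes, the list of megakaryocyte transcription factors and the 8 lists of cell markers were chosen with earlier results of these data known. Named were all tubulins, of each list but the markers the 2 tested genes with the highest mean and the 1 with the smallest p, the 3 genes nearest to Tubb1 and to Tuba4a, and 2 genes of each marker list. Vbp1, Ttll7, Cct5, Tubg1 and markers at 0 were named after their values were seen. Alternatives are given with their effect at the end. The coding ends of the other isotypes are not reported here. No protein sequences were used here.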

Additional observations from a re-analysis of the deposited data

How the results depend on the processing

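No tubulin passed the adjusted threshold under any of 14 alternatives (lowest adjusted p = 0.329 from limma-trend, for Tuba1b). The log2 fold changes of Tuba4a (-0.29 to -0.0051), Tuba8 (0.058 to 0.31), Tuba1a (-0.62 to -0.29) and Tuba1b (0.026 to 0.66) kept their sign but not their size. Scaling to equal summed FPKM moved the median log2 fold change of all genes by 0.136, and scaling to the recovered reads, chosen after seeing the data, by 0.105. With equal summed FPKM the log2 fold change turned to 0.085 for Tuba1c, 0.097 for Tubb2a, 0.16 for Tubb4b and 0.16 for Tubb5. With recovered reads it turned to 0.046, 0.058, 0.12 and 0.12. That of Tubb1 was 0.18 and 0.14 under these scalings, and that of Tuba4a -0.0051 and -0.044. With quantile normalization it turned to 0.0025 for Tubb2a, 0.10 for Tubb4b and 0.094 for Tubb5. Leaving out 1 library gave -0.078 to 0.091 for Tubb1, -0.17 to 0.043 for Tubb2a, -0.075 to 0.044 for Tubb4b, -0.10 to 0.14 for Tubb5 and -0.22 to 0.89 for Tubb6. The cause was not tested.

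The difference in share with 1 library left out was -0.36 to 2.09 percentage points for Tuba4a, -0.11 to 0.17 for Tubb4b, -0.079 to 0.069 for Tubb5, -0.013 to 0.098 for Tubb6, 0.226 to 1.56 for Tubb1 and -1.59 to -0.138 for Tubb2a. That of Tubb4b was 0.015 with all tubulin rows in the sum and 0.0037 with recovered reads. The share of Tuba1a kept its direction in all 9 alternatives.

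Genes passing the adjusted threshold in limma numbered 0 with no filter, with at least 1 FPKM in every library, with equal summed FPKM, with limma-voom on recovered reads and with scaling to recovered reads, and 0 to 2 with 1 library left out. Gzma was lost without control 1 or control 3, and Tyrobp was added without pre-AML 3. Genes of the microtubule and transcription factor lists at an unadjusted p under 0.05 numbered 6 higher with no filter, 1 higher with at least 1 FPKM in every library, and 1 higher and 3 lower with scaling to recovered reads. With equal summed FPKM 3 were lower. With 1 library left out 0 to 2 were higher and 2 to 5 lower, with 0 higher without control 1 or control 2 and 2 lower without control 1. Leaving out control 3, pre-AML 2 or pre-AML 3 gave 3 lower, and leaving out pre-AML 1 or pre-AML 3 gave 1 higher.

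Correlations across genes of the deviations from the group mean were -0.043, -0.12 and -0.17 for same-numbered libraries. For libraries of unlike number they ran from -0.096 to 0.17. Deviations within a group sum to 0, so these values cannot decide whether the numbers pair libraries. With the replicate number as a block, 1 gene passed the threshold, the log2 fold change of Tubb1 was 0.0067, and the sign-flip p of the Tuba1a share was 0.25, the smallest 3 pairs allow. The fewest reads behind a value were 45 for Tubb6 and 131 for Tuba1b, so counting error is largest for these genes. With 3 libraries a group, changes within the printed intervals could not be told from 0.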
